A study of Mus musculus with 9 samples.

Results

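Immediate early genes were read here in laser-cut samples of lumbar spinal cord, labelled as motor neurons, from mice with spinal muscular atrophy (SMA) after a transplant of cells. The genes were Fos, Fosb, Jun, Junb, Jund, Egr1, Ier2, Atf3, Dusp1 and Socs3, and the members were all probe sets that the platform annotation gives to one of them alone. That rule found 13 probe sets of 10 genes, of 12393 genes named on the array. The genes were chosen by their log2(signal + 16) values in the 3 groups, which were already known, so their differences between groups are given as descriptions and not as tests.

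The study compared 3 groups of 3 arrays, each from 1 mouse per the labels' protocols. Transplanted SMA 3 read both Xist (366.1) and the Y-linked Eif2s3y (84.8), a mix seen on no other array. Transplanted SMA mice received cells that the labels call NSC, an abbreviation known from the study to stand for neural stem cells. SMA mice and wild-type mice had the same surgery with vehicle, so the operation itself was common to all groups. Surgery was done at postnatal day 1 and the mice were killed at 13 days. The SMA mice are described as transgenic; their strain, alleles and sex are not stated in the labels. Cells were cut from 16 µm sections of perfused, frozen lumbar cord, about 100 per cap, and their RNA was amplified in a double procedure before labelling. A signal is the MAS5 value of a probe set, a linear brightness in arbitrary units that cannot be compared between probe sets. Of 10 motor neuron markers with a probe set, 1 was bright enough to test, and Slc18a3, the vesicular acetylcholine transporter, read 2.1 to 41.7 over the 9 arrays. The 10 summed to 176.1 to 347.8 in transplanted SMA mice, against 139.6 to 239.6 in SMA mice and 138.5 to 207.8 in wild-type mice, so these markers do not show the labelled cell type to be enriched. Transplanted SMA 1 and 2, at 295.8 and 347.8, lay above every SMA and wild-type array, and transplanted SMA 3 did not. The 1 tested marker was higher in transplanted SMA mice without overlap, by 0.72 over SMA and 0.83 over wild type. Such an order was seen in 4.43% and 7.11% of all tested probe sets. Its part in the members' differences was not tested. The myelin gene Mbp read 7831.6 to 13348.6 and the astrocyte gene Gfap 399.6 to 2206.1, so transcripts of glia were present on every array.

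Immediate early genes are switched on within minutes of a stimulus such as synaptic activity, growth factors, cytokines or injury, without new protein synthesis. Kinases of the MAP kinase and cAMP pathways phosphorylate factors already bound at these genes, chiefly SRF with its Elk partners and CREB. Fos, Fosb, Jun, Junb and Jund encode the partners in AP-1, a leucine zipper dimer that binds DNA; Atf3 joins the same dimers and is a well known mark of axotomised neurons. Dusp1 and Socs3 encode brakes on the pathways that switch them on.

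The promoters of 4 members are shown as examples that carry, close to the start site, letters that CREB, STAT or EGR factors are known to bind. A link between these motifs and the members' differences was not tested. Sequences are from RefSeq on GRCm38.p6 and run from 250 bases before to 50 bases after the annotated start. Capitals mark the motifs searched on both strands, and positions count from the start site, negative before it. Fos lies at chr12:85473640-85473939 on the plus strand, Fosb at chr7:19309996-19310295 on the minus strand, Dusp1 at chr17:26508423-26508722 on the minus strand and Socs3 at chr11:117969317-117969616 on the minus strand.
Fos: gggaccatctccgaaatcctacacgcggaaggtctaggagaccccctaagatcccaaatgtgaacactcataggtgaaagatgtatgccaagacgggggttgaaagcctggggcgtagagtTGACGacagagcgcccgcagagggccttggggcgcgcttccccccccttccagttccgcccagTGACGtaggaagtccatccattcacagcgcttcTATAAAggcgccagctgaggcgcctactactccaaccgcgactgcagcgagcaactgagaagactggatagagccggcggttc
Fosb: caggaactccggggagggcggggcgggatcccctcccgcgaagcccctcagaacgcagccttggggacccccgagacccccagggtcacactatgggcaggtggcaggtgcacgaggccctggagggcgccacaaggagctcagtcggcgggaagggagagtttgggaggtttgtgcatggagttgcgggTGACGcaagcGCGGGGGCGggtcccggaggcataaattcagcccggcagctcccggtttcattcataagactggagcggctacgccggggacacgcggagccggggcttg
Dusp1: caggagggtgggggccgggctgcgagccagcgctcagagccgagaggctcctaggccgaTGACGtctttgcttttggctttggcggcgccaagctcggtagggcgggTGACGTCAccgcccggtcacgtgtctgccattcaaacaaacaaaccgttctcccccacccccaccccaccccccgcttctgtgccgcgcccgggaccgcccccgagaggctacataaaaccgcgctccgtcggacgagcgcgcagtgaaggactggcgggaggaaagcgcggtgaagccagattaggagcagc
Socs3: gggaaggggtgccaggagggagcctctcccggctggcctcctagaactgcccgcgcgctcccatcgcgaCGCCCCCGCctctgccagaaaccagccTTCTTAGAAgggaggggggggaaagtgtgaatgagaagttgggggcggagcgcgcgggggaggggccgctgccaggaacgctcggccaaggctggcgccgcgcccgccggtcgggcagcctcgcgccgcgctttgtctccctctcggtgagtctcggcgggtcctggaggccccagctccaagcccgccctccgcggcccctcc

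In Fos the core of the cAMP response element, TGACG, began at positions -129 and -66, and a TATA box, TATAAA, at -33. In Dusp1 the full palindromic element TGACGTCA began at -143, and a further core at -191. The full element contains the core on both strands. Fosb held 1 core at -60 and the EGR motif GCGNGGGCG at -50. Socs3 held no core, but the STAT motif TTCNNNGAA at -154 and the EGR motif at -181. A promoter sequence was at hand for 8 members, searched alike, with Egr1 not analysed here and Ier2 not in the table. The core was in 5 of these 8, namely Fos, Fosb, Junb, Atf3 and Dusp1, and in 20.8% of 32851 promoters of the same length. The full element was in 1 of 8, against 1.79% of all promoters, the STAT motif in 1 of 8 against 8.3%, the EGR motif in 2 of 8 against 5.55%, and the TATA box in 2 of 8 against 13.6%. Besides that of Fos, the TATA box letters were in Junb, where they began at position 0, on the annotated start site. The AP-1 motif TGANTCA, present in 7.81% of promoters, and the CArG box of SRF, present in 1.63%, were in 0 of the 8 windows. The CArG box of Fos is known to lie farther upstream than this window reaches. Jun, which stood higher after transplantation, and Jund, which did not, both lacked all 7 motifs in their windows.

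The first comparison, transplanted SMA minus SMA, asks what differed in the captured cells of SMA mice that had received a transplant. The brightest probe set of each gene read higher on all 3 transplanted SMA arrays than on any SMA array for 9 of the 10 genes, Jund being the exception. The ratio of group means ran from 1.53 for Jun to 4.7 for Socs3 over these 9 genes, and was 1.05 for Jund. The brightest Socs3 probe set has probes that can match other transcripts, and the next one, without such probes, gave a ratio of 2.22. All 13 probe sets were positive, with 50.3% of all tested above 0. By limma, 0 of the 10 member probe sets bright enough to test passed an adjusted p of 0.05, where 0.0% of all 11313 tested did. The smallest adjusted p of all was 0.933. An unadjusted p under 0.05 was found for 540 of the 11313, no more than that cut-off gives where nothing differs. Groups without overlap, with transplanted SMA higher, were seen in 8 of the 10 tested member probe sets and in 4.43% of all tested, which is read no further because this contrast was in view when the genes were picked. Of the 27 tested probe sets with a log2 difference of at least 1, 0.239% of all, 5 belonged to members. In tissue cut from several mice, more cells of a type and more RNA per cell cannot be told apart.

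**Figure D1:**
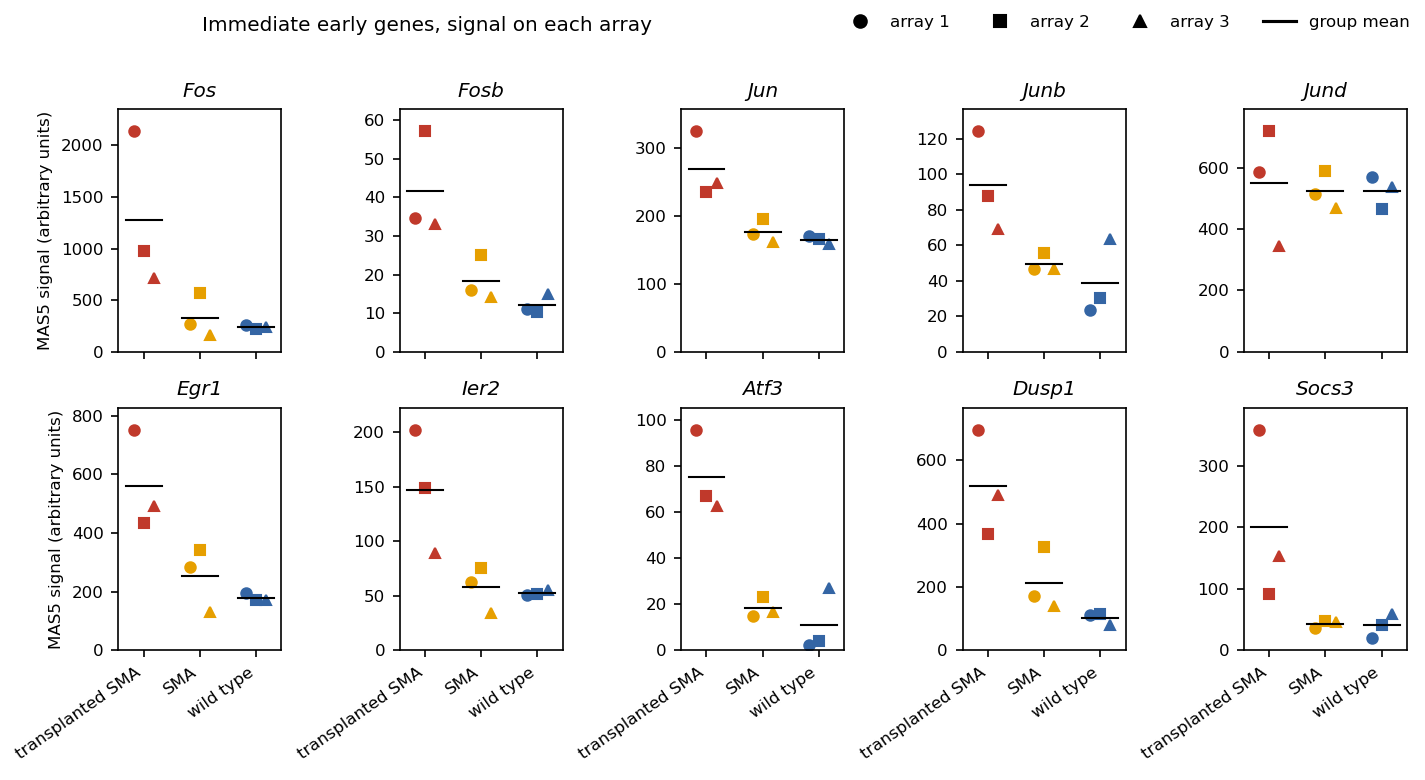
MAS5 signal (arbitrary units, linear axes from 0) of the brightest probe set of each of the 10 genes on each array; symbols mark the array number within a group and lines the mean of 3 arrays. Transplanted SMA arrays lie above all SMA arrays for every gene but Jund, while SMA and wild-type arrays overlap for every gene but Dusp1.

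Among the FOS proteins, which cannot pair with themselves and need a JUN partner, Fos differed most. Fos read 2133.9, 978.8 and 716 in transplanted SMA mice, against 264.9, 564.9 and 162.1 in SMA mice and 263, 216.3 and 237.6 in wild-type mice. Each transplanted SMA array was above every other array, and the SMA arrays spread on both sides of the wild-type ones. The difference of transplanted SMA from SMA was 1.92 on the log2(signal + 16) scale (SE 0.44, n = 3 each), and group means were 1276 ± 754.3 and 330.6 ± 209.3 (SD). Fosb was too dim to test, at 34.6, 57.1 and 33.2 in transplanted SMA mice, against 15.9, 25.2 and 14.2 in SMA mice and 11, 10.3 and 15.1 in wild-type mice. Transplanted SMA did not overlap with either other group, and the difference from SMA was 0.73 (SE 0.22, from a fit of all probe sets). Fosb was highest on transplanted SMA 2, where Fos was highest on transplanted SMA 1.

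The 3 JUN genes, whose proteins pair with FOS proteins or with each other, did not differ alike. Jun read 324.7, 235.4 and 249.1 in transplanted SMA mice, against 173.9, 195 and 161.2 in SMA mice and 170.2, 166.8 and 159.1 in wild-type mice. The wild-type arrays lay within 1.07-fold of each other, and the transplanted SMA arrays stood above both other groups by 0.56 over SMA (SE 0.17) and 0.64 over wild type (SE 0.17). The dimmer probe set of Jun gave a larger difference of 0.98 over SMA (SE 0.4), but with overlap: it read 426.2, 198.6 and 178.5 in transplanted SMA mice, against 129.1, 194.6 and 62.3 in SMA mice and 126, 152.1 and 74.1 in wild-type mice. Junb, a JUN protein that often restrains Jun, read 124, 87.8 and 69.1 in transplanted SMA mice, against 46.7, 55.6 and 46.6 in SMA mice and 23.5, 30.2 and 63.2 in wild-type mice. It was higher in each transplanted SMA mouse than in any other mouse, by 0.71 over SMA (SE 0.27), and wild type 3 read above all SMA arrays.

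Jund, which most cells express steadily and which is the least inducible JUN gene, was the member whose groups did not separate. It read 585, 718.5 and 344.6 in transplanted SMA mice, against 515.4, 588 and 468 in SMA mice and 570.2, 466.6 and 536.4 in wild-type mice. The lowest and the highest signals of all 9 arrays were both in transplanted SMA mice. Differences were 0.01 over SMA (SE 0.24), 0.00 for SMA over wild type and 0.01 for transplanted SMA over wild type, and their sign changed with median centring and when single arrays were left out.

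Atf3, a partner of JUN proteins in stress and nerve injury, was too dim to test. It read 95.7, 66.8 and 62.8 in transplanted SMA mice, against 14.9, 23.2 and 16.6 in SMA mice and 2.1, 4 and 27.2 in wild-type mice. Every transplanted SMA array was well above the highest other array, which was wild type 3. The difference from SMA was 1.40 (SE 0.31, from a fit of all probe sets), and the ratio of group means was 4.12.

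Egr1, a zinc finger factor induced by SRF and by synaptic activity, read 751.3, 433.5 and 490.2 in transplanted SMA mice, against 284.4, 342.9 and 130.8 in SMA mice and 195, 170.1 and 170.8 in wild-type mice. Transplanted SMA lay above both groups, by 1.15 over SMA (SE 0.31); SMA 1 and SMA 2 were above the wild-type arrays and SMA 3 below them. Ier2, a short-lived nuclear protein, read 202.3, 148.5 and 89.3 in transplanted SMA mice, against 62.9, 75.5 and 34.5 in SMA mice and 51.1, 51.4 and 55.6 in wild-type mice. The difference from SMA was 1.12 (SE 0.28), and wild-type arrays lay within 1.09-fold of each other, all inside the SMA range.

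Of the brakes, Dusp1, the phosphatase that switches off p38 and JNK kinases, was the gene with a step at each group. It read 696.9, 367.9 and 491.9 in transplanted SMA mice, against 172.5, 327 and 139.7 in SMA mice and 110.4, 114.2 and 78.1 in wild-type mice. No groups overlapped, with a difference of 1.26 for transplanted SMA over SMA (SE 0.31) and 0.90 for SMA over wild type (SE 0.31). Socs3, which blocks JAK kinases at cytokine receptors of the gp130 family, had 3 probe sets that differed in size. The brightest, an _x_at probe set, read 359.1, 92.2 and 152.9 in transplanted SMA mice, against 35.5, 47.5 and 45.5 in SMA mice and 20.3, 41.5 and 59.5 in wild-type mice, a difference from SMA of 1.70 (SE 0.4). The next read 135.5, 66.9 and 60.4 in transplanted SMA mice, against 32.9, 33.4 and 52 in SMA mice and 19.4, 23.3 and 34.2 in wild-type mice, a difference of 0.85 (SE 0.27). Both put each transplanted SMA array above all others. The dimmest, below the brightness needed for a test, read 88.5, 34.2 and 43.8 in transplanted SMA mice, against 23.8, 41.1 and 31.8 in SMA mice and 11.6, 10.3 and 23.8 in wild-type mice, so that transplanted SMA and SMA overlapped at a difference of 0.51 (SE 0.3). IDs ending in _x_at mark probes that can match other transcripts.

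**Figure D2:**
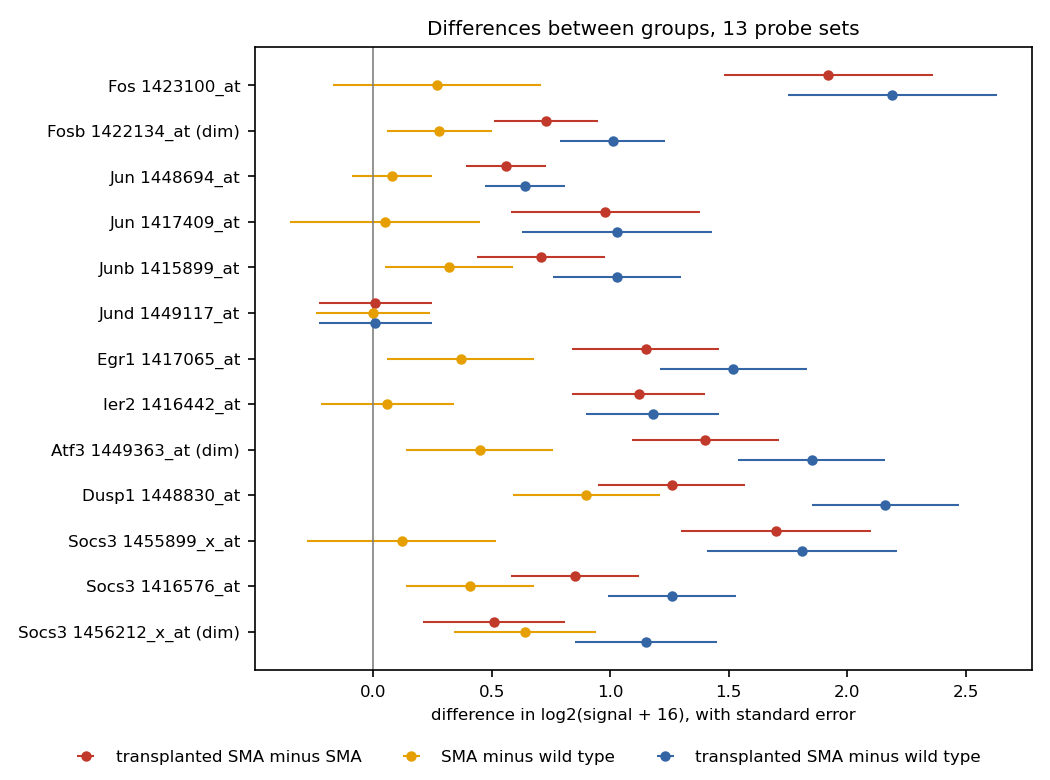
Differences in log2(signal + 16) between groups (x axis) for the 13 probe sets (rows, "dim" where not tested), as points with standard errors from limma, 3 arrays per group. Both comparisons with transplanted SMA run to the right of 0 for all genes but Jund, and SMA minus wild type lies between 0.00 for Jund and 0.90 for Dusp1; the comparisons share arrays.

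Over the 10 genes, the median difference of transplanted SMA from SMA was 1.14, beside a median of 0.00 over all tested probe sets. A difference of that size or above was found in 0.177% of all tested probe sets. The members moved unevenly within groups. Transplanted SMA 1 was the highest of all arrays for 11 of the 13 probe sets, and transplanted SMA 2 for the other 2. Averaged over the 10 genes, transplanted SMA 1, 2 and 3 lay 1.76, 1.22 and 1.04 log2 units above the wild-type mean, SMA 1, 2 and 3 lay at 0.24, 0.63 and -0.02, and wild type 1, 2 and 3 at -0.10, -0.07 and 0.17. SMA 2 was the highest SMA array for 12 of the 13 probe sets and SMA 3 the lowest for 9. Without transplanted SMA 1 the median difference was 0.90, with 1.47 for Fos, 1.21 for Socs3 and 1.25 for Atf3. Without SMA 3 it was 0.82.

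Members varied together over the arrays as a description of 9 arrays that share group and scaling. Group means were not removed, and the genes were picked with these values known, so the correlations include the group differences themselves. The Pearson correlation of each tested gene with the mean of the other 7 standardised genes was 0.98 for Fos, 0.97 for Ier2, 0.95 for Jun, 0.93 for Egr1, 0.88 for Dusp1, 0.86 for Junb, 0.84 for Socs3 and 0.17 for Jund. Of all other named probe sets tested, the 6 most like the mean of the 8 tested members were both probe sets of Btg2 (r = 0.929 and 0.919), Rpl37 (0.92), Banf1 (0.9), Top3b (0.886) and Foxo1 (0.882). Those of Rpl37, Banf1 and Top3b are _x_at probe sets, whose probes can match other transcripts. Btg2, an antiproliferative gene that is itself an early response gene, read 227.2, 122.5 and 85.6 in transplanted SMA mice, against 70.1, 91.5 and 81.6 in SMA mice and 51.3, 64.8 and 75.9 in wild-type mice at its brighter probe set. Its difference from SMA was 0.64 (SE 0.28), and transplanted SMA and SMA overlapped. The other genes in that order differed by 0.33 to 0.47.

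Readings of other cells and of RNA quality moved on some of the same arrays. The 10 endothelial and mural markers with a probe set, of 11 listed, summed to 2787 on transplanted SMA 1, 1466 on transplanted SMA 2 and 1253 on transplanted SMA 3, against 682.6 to 2529 in SMA mice and 735.3 to 2316 in wild-type mice. Of 8 tested, 7 were positive in transplanted SMA minus SMA (median 0.63). Pecam1, their defining gene, read 3.6 to 31 over all arrays. All 9 meningeal and fibroblast markers summed to 8068 on transplanted SMA 1 and 1899 and 1851 on the other two, against 1845 to 4197 in SMA mice and 1050 to 4905 in wild-type mice, and their defining gene Col1a1 read 28.2 to 318.1. Of 8 tested, 6 were positive (median 0.40). Transplanted SMA 1 was thus highest of all arrays in both sums and in the mean of the members. Transplanted SMA 2 and 3 also lay above all SMA and wild-type arrays in that mean, with sums inside the range of the SMA arrays. In the endothelial sum only SMA 3 of the SMA arrays read higher than they did. SMA 1 and SMA 2 read 682.6 and 892, and wild type 1 and 2 read 1172 and 735.3, below them. SMA 3 and wild type 3 had endothelial sums of 2529 and 2316 with members at -0.02 and 0.17. All 10 microglial markers summed to 4804 to 9322 in transplanted SMA mice, against 8676 to 10820 in SMA mice and 5726 to 11580 in wild-type mice, and 0 of 9 tested ones had a positive difference of transplanted SMA from SMA (median -0.82). C1qa, their defining gene, read at least 182.9 on every array. All 10 astrocyte markers summed to 9940 to 15790 in transplanted SMA mice, against 9457 to 16770 in SMA mice and 9509 to 11700 in wild-type mice. The 10 markers of neural stem and progenitor cells summed to 4106 to 6192 in transplanted SMA mice, against 4383 to 6277 in SMA mice and 4415 to 6146 in wild-type mice. Nefl and the other 10 neuronal markers summed to 1829 to 4424 in transplanted SMA mice, against 1589 to 3163 in SMA mice and 2253 to 2663 in wild-type mice. The 9 oligodendrocyte markers with a probe set summed to 29620 to 39310 in transplanted SMA mice, against 22040 to 36960 in SMA mice and 28640 to 32070 in wild-type mice. Blood markers, 5 with a probe set, summed to 606.8 to 1774 in transplanted SMA mice, against 1138 to 3876 in SMA mice and 1713 to 3418 in wild-type mice. The part of any of these cells in the members' differences was not tested.

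SMA 3 and wild type 3 had the highest readings of some RNA measures. Their 18S ribosomal RNA signals were 2764.7 and 2939.6, with 839.2 to 1831.9 on the other 7 arrays. The actin probe sets gave 3' over 5' signals of 4.32 and 3.66 on these arrays and 2.48 to 3.11 on the others. The same ratio of Gapdh did not set them apart, at 3.92 and 3.63, with 3.19 to 4.26 on the others. Leaving both out, the median difference of transplanted SMA from SMA was 0.82, as without SMA 3 alone, because wild type 3 does not enter this difference. Sex-linked transcripts were uneven: Xist read 733, 739.6 and 366.1 in transplanted SMA mice, against 600.7, 879.5 and 47.6 in SMA mice and 23.5 to 32.9 in wild-type mice. With SMA 1, SMA 2, transplanted SMA 1 and transplanted SMA 2, which had high Xist and Eif2s3y at 0.1 to 0.5, as the arrays of these groups, the median was 0.94 and all 10 genes were positive, with 1.86 for Fos. Acta1 of skeletal muscle read 1288.7 and 1413.7 on SMA 1 and SMA 2 and at most 27.1 on the others, and all 8 muscle markers summed to 2405 and 3014 on these 2 arrays and 77.8 to 191 on the others, and without these 2 arrays, with SMA 3 as the 1 SMA array left, the median was 1.55.

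**Figure D3:**
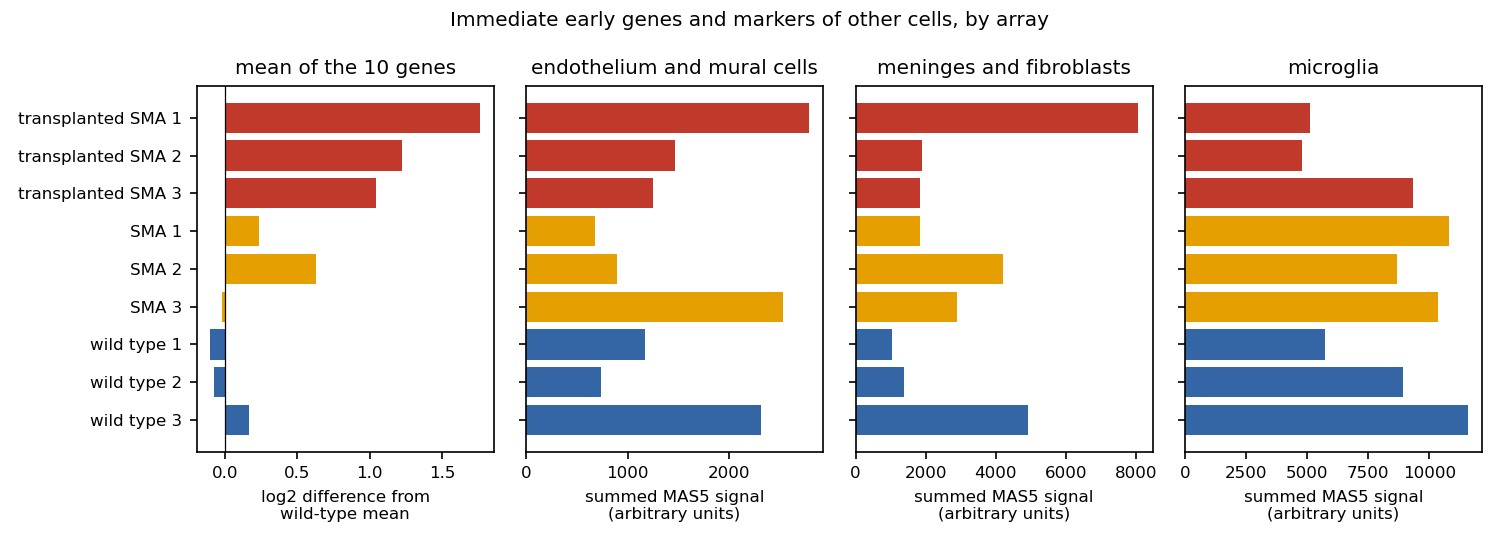
Each array's mean of the 10 genes (first panel, log2 difference from the wild-type mean) beside the summed MAS5 signals of markers of endothelium and mural cells, meninges and fibroblasts, and microglia (bars from 0). Transplanted SMA 1 has the highest mean at 1.76 and the highest endothelial (2787) and meningeal (8068) sums. Transplanted SMA 2 and 3 have means of 1.22 and 1.04 with sums inside the range of the SMA arrays. Their endothelial sums are below that of SMA 3 and above those of SMA 1 and SMA 2.

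The second comparison, SMA minus wild type, sets vehicle-treated SMA mice beside vehicle-treated wild-type mice. More than the labelled genotype differed between these arrays: Xist was high on SMA 1 and SMA 2 and low on all wild-type arrays, and SMA 1 and SMA 2 carried the muscle transcripts given above. Without SMA 1 and SMA 2, which leaves 1 SMA array, the median over the 10 genes was 0.04, with 5 of 10 positive. The comparison shares the SMA arrays with the first comparison, so a high or low SMA array enters both, with opposite sign. The median over the 10 genes was 0.28, beside 0.01 over all tested probe sets, and 12.8% of all tested probe sets had a difference of that size or above. Of the 13 probe sets, 12 overlapped between SMA and wild type. Dusp1 was the exception, and 5.31% of all tested probe sets had SMA above wild type without overlap and 6.06% below, an order seen in 0 members. The difference was positive for 12 of the 13, with 51.0% of all tested, and at least 1 for 0, with 0.477% of all tested. By limma 0 of the 10 tested member probe sets passed, where 0.0442% of all tested (5 of 11313) did. Fos differed by 0.27 (SE 0.44), Egr1 by 0.37 (SE 0.31), Junb by 0.32 (SE 0.27), Atf3 by 0.45 (SE 0.31), and Ier2 by 0.06 (SE 0.28). Fos turned to -0.18 and Ier2 to -0.12 without SMA 2, and the median was then 0.09. Dusp1 remained positive at 0.57 without SMA 2.

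The third comparison, transplanted SMA minus wild type, asks how far the transplanted animals stood from wild-type ones, and shares its arrays with both comparisons above. More than the labelled groups differed here too. Xist read 733, 739.6 and 366.1 in transplanted SMA mice, against 23.5 to 32.9 in wild-type mice, and its part in the differences was not tested. The median over the 10 genes was 1.35, beside -0.01 over all tested probe sets. Of the 13 probe sets, 12 had all transplanted SMA arrays above all wild-type arrays. Among the 10 tested they were 9, where 7.11% of all tested probe sets had this order and 7.04% the opposite one. All 13 were positive, with 48.5% of all tested, and 8 of the 10 tested differed by at least 1, with 0.725% of all tested. The group means ranked transplanted SMA, then SMA, then wild type for 12 of the 13 probe sets. The share of all probe sets with this ranking was not counted. SMA and wild-type arrays overlapped for 12 of the 13. Among those ranked, the ratio of SMA to wild-type means ran from 1.06 for the brightest Socs3 probe set to 2.12 for the dimmest. Fos differed by 2.19 (SE 0.44), Dusp1 by 2.16 (SE 0.31), Atf3 by 1.85 (SE 0.31), Socs3 by 1.81 (SE 0.4) at its brightest probe set and Egr1 by 1.52 (SE 0.31). By limma 0 of the 10 tested member probe sets passed, as did 0.0% of all tested, and 741 of 11313 had an unadjusted p under 0.05.

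Other genes of these pathways, in 7 lists, were set beside the members. Of 141 genes in these lists, 127 had a probe set and 82 were bright enough to test. In transplanted SMA minus SMA 0 of 82 passed in either direction, 42 were positive, and the median was 0.00; 4 stood higher and 6 lower without overlap, where 4.43% of all tested probe sets stood higher and 4.68% lower. In SMA minus wild type 1 passed, on the higher side, where 0.0442% of all tested probe sets passed, and the median was 0.09. Without overlap 13 stood higher and 4 lower, where 5.31% of all tested probe sets stood higher and 6.06% lower. In transplanted SMA minus wild type 0 passed and the median was 0.07, while 17 stood higher and 4 lower without overlap, where 7.11% and 7.04% of all tested probe sets did. In that comparison 5 of the 82 differed by at least 1, where 0.725% of all tested did. Of these 5, 3 were other immediate early transcription factors and 2 other immediate early effectors. The same lists held 4 and 7 of the 17 that stood higher without overlap.

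Other immediate early transcription factors had 12 tested genes, 10 of them positive in transplanted SMA minus SMA (median 0.23), and 0 passed. In SMA minus wild type 10 were positive too, with a larger median of 0.44. In transplanted SMA minus wild type 11 were positive (median 0.40). Nr4a1, an orphan nuclear receptor of the early response, read 262.5, 118.6 and 76.7 in transplanted SMA mice, against 87.1, 61.2 and 68.6 in SMA mice and 30.9, 44.4 and 65.7 in wild-type mice (0.79, SE 0.35). Its groups overlapped between transplanted SMA and SMA through transplanted SMA 3. Klf2, a zinc finger factor well known in endothelium, read 203.2, 91.4 and 103.5 in transplanted SMA mice, against 61.4, 84.1 and 84.5 in SMA mice and 45.8, 39 and 53 in wild-type mice (0.62, SE 0.26). Like Dusp1, it had no overlap between any of the groups. Per1, a clock gene also induced early, and Myc gave -0.44 (SE 0.27) and -0.45 (SE 0.21), with values of 0.86 and 0.52 in SMA minus wild type, so these early genes did not follow the members.

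Other immediate early effectors had 17 tested genes, of which 10 were positive in transplanted SMA minus SMA (median 0.15) and 0 passed. In SMA minus wild type 13 were positive, with a larger median of 0.29. In transplanted SMA minus wild type 12 were positive (median 0.32). Zfp36, which destabilises cytokine mRNAs, read 241.3, 142.8 and 182.6 in transplanted SMA mice, against 88.2, 131.8 and 81.7 in SMA mice and 47.8, 58.9 and 133 in wild-type mice (0.81, SE 0.31), without overlap between transplanted SMA and SMA. Its relative Zfp36l2 gave -0.54 (SE 0.19), lower without overlap. The growth arrest genes Gadd45b and Gadd45g gave -0.05 (SE 0.26) and 0.08 (SE 0.2), against 0.91 and 0.87 in SMA minus wild type. Among AP-1 and ATF genes beyond the members, 4 of 8 tested were positive (median 0.00); Crem, a target and inhibitor of CREB, gave 0.39 (SE 0.24) and the FOS gene Fosl2 0.22 (SE 0.2). Jdp2, a repressor that pairs with JUN, gave -0.03 (SE 0.17), and Atf2, a partner of Jun, -0.18 (SE 0.18), against 0.48 and 0.24 in SMA minus wild type.

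As lists, the tested genes beyond the members that carry or restrain the signal did not share the members' direction. Only their RNA was read, not the signal itself. Of 15 listed MAP kinase phosphatases and Sprouty genes, 9 were tested and 4 were positive in transplanted SMA minus SMA (median -0.03). Dusp16 gave 0.10, Spry2 -0.08 and Spred1 -0.09. Of 14 tested MAP kinases and SRF or CREB regulators, 6 were positive (median -0.03); the JNK kinase Mapk9 gave 0.29 (SE 0.16) and Nras -0.23 (SE 0.15), each without overlap. The kinase Map2k1 of the ERK pathway gave -0.12 (SE 0.16) and the neuronal JNK kinase Mapk10 -0.04 (SE 0.43). Of 14 tested genes of JAK-STAT3 signalling, which Socs3 restrains, 4 were positive (median -0.14). Jak2 read 152.3, 122.5 and 119.2 in transplanted SMA mice, against 207.1, 165.2 and 220.9 in SMA mice and 102.5, 123.4 and 122 in wild-type mice, lower than SMA without overlap at -0.53 (SE 0.18). The receptor gene Lifr gave -0.33 (SE 0.19) and Cish, a relative of Socs3, -0.21 (SE 0.19). Stat3, named after its values were seen, gave -0.33 (SE 0.21), also lower without overlap. In SMA minus wild type Jak2 gave 0.69, Lifr 0.12, Cish 0.58 and Stat3 0.58, and 12 of the 14 tested genes were positive (median 0.15). In transplanted SMA minus wild type 9 were positive (median 0.06). Of 8 tested genes linked to Atf3 and nerve injury, 4 were positive in transplanted SMA minus SMA (median -0.06). The tubulin gene Tubb3 gave -0.62 (SE 0.53) and the stathmin Stmn4 0.07 (SE 0.22). Hspb1, a small heat shock protein of injured neurons, rose in SMA over wild type by 1.87 (SE 0.22, limma adjusted p = 0.0135), the 1 gene of the lists past the threshold in any comparison. In transplanted SMA minus SMA it gave -1.02 (SE 0.22) at 171.9, 104.9 and 147.3 in transplanted SMA mice, against 368.5, 288.5 and 249.2 in SMA mice.

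**Figure D4:**
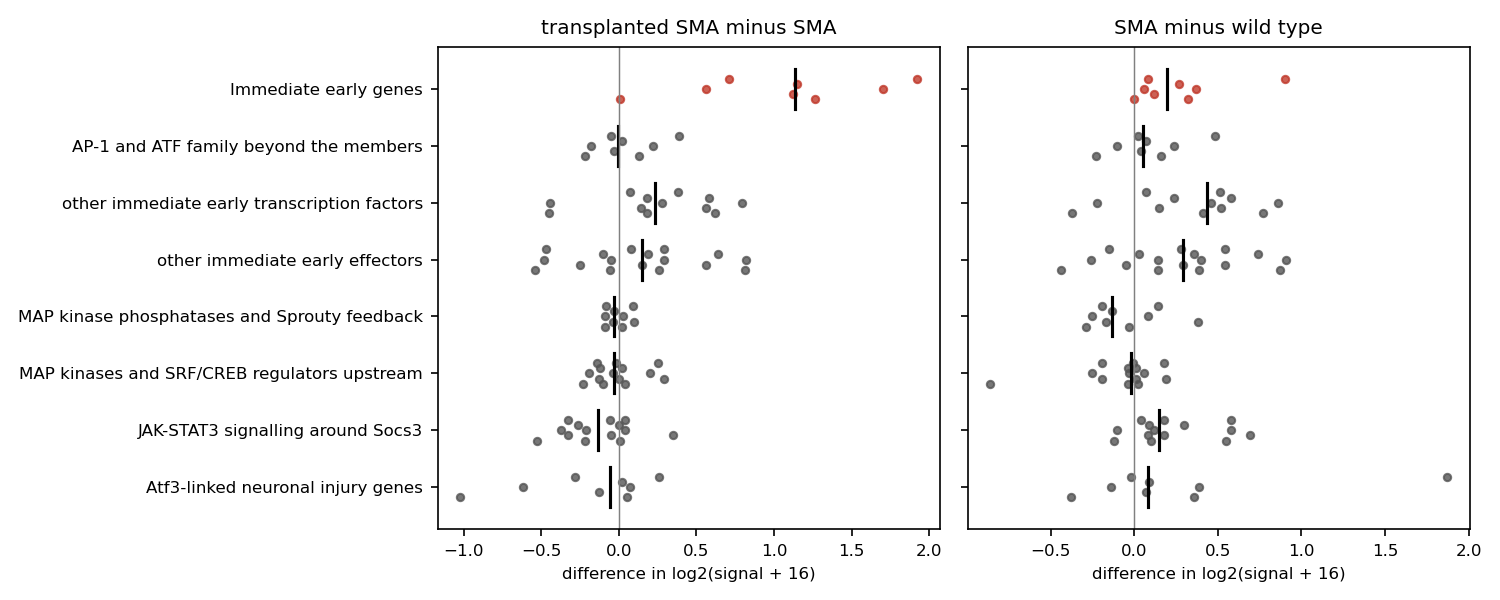
Differences in log2(signal + 16) of the tested genes (points, brightest probe set) and list medians (bars) for the 8 tested members and for 7 lists of other genes of these pathways, in transplanted SMA minus SMA and in SMA minus wild type. In the first panel the members lie between 0.01 and 1.92, and the list medians between -0.14 and 0.23.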

How the data were processed

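Gene expression was measured on 9 Affymetrix arrays. Intensity values are MAS5 signals, linear and per probe set, as deposited and per the submitters' processing notes; the MAS5 version, any detection filter and the scaling target are not stated in the labels. Double amplification, per the labels' protocols, favours the 3' end of transcripts. Array medians were 31.4 to 35.8, 0 pairs of columns were identical, and the number of arrays limits the precision.

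Of 22690 probe sets, 64 controls were left out; 20380 named 1 gene, 691 several and 1555 none in the platform annotation, and those with several named none. Signals had 16 added and were taken to log2, which makes fold changes of dim genes look smaller. Tested were the brighter 50% by the mean over 9 arrays (11313 probe sets, 7254 genes), with limma 3.58.1 in R 4.3.3 (lmFit, eBayes with trend, 1 mean per group, 6 residual degrees of freedom), two-sided, with Benjamini-Hochberg adjustment and a threshold of 0.05. The fit was tested on simulated data. A gene was read from its brightest probe set unless stated. Members' probe sets too dim to test take their values from the same fit over all probe sets.

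The members, lists and tests were chosen with earlier results of these data known. Named beside the members were list genes past the threshold, the 2 with the smallest p per list in each of the first 2 comparisons, and the 6 probe sets most like the members. Marker lists of skeletal muscle, blood, oligodendrocytes, neurons and sex-linked transcripts were read too. Alternatives were other scalings, pseudocounts of 1 and 64, other filters, array weights, a replicate block, fits of 6 arrays, leaving out each array, and 3 settings added after seeing the data.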

Additional observations from a re-analysis of the deposited data

How the results depend on the processing

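The median over the 10 genes kept its sign under every alternative run in all 3 comparisons, of which the setting without SMA 1 and SMA 2 leaves 1 SMA array and says little of stability. The replicate block, the fits of 6 arrays and leaving out an array of the group not compared could not change this median. For transplanted SMA minus SMA it was 0.82 to 1.36 when single arrays were left out, 0.76 with a pseudocount of 64, 0.82 without wild type 3 and SMA 3, 0.94 with SMA and transplanted SMA arrays 1 and 2 only, and 1.55 without SMA 1 and SMA 2. For SMA minus wild type it was 0.09 to 0.36 when single arrays were left out, 0.46 with array weights, 0.55 without wild type 3 and SMA 3, and 0.04 without SMA 1 and SMA 2. For transplanted SMA minus wild type it was 1.20 to 1.53 when single arrays were left out, 1.64 with a pseudocount of 1 and 0.86 with one of 64. The count of probe sets past the threshold in transplanted SMA minus SMA (0) was 0 to 4 when single arrays were left out (4 without SMA 3), 7 without wild type 3 and SMA 3, and 4 with arrays 1 and 2 only; 0 members were among them. In SMA minus wild type (5) it was 2 to 13 when single arrays were left out, 2 with the brighter 25%, 1 without probe sets with shared probes, 11 without wild type 3 and SMA 3 and 0 without SMA 1 and SMA 2. In transplanted SMA minus wild type (0) it was 0 to 7 when single arrays were left out (7 without SMA 3) and 2 with a pseudocount of 1. It was 8 with array weights, 8 with the 6 arrays compared and 6 without wild type 3 and SMA 3. Members among them were Dusp1 with array weights and with the 6 arrays compared, and Dusp1 and Egr1 without SMA 3. The cause of these changes in the counts was not tested. The sample number as a replicate block left the counts at 0, 5 and 0. The medians stayed at 1.14, 0.28 and 1.35, as they must when each number occurs once per group. Deviations of same-numbered arrays correlated at -0.083 to 0.453, and not every pair was above 0.1, so the numbers were not taken to pair the mice. Number 3 was positive in all 3 comparisons (0.273, 0.453 and 0.136), and a shared batch was not tested. With a pseudocount the size of dim genes' differences depends on that choice, and Fosb and Atf3 were measured near the low end of the signal range.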
